A study of Mus musculus with 6 samples.

Results

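The suppressor of cytokine signalling (SOCS) family has 8 genes in the mouse, Cish and Socs1 to Socs7, and they are described here in CD4+ helper T cells that met a T cell receptor stimulus. The members were taken by name. All 8 were found among the 48440 genes of the deposited count table through the GENCODE M21 annotation, and all 8 passed the filter on low counts, which left 13314 genes for testing. Their read counts ran from 385 to 19694 per library.

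The T cells had been isolated as CD4+ cells from wildtype animals, out of lymph nodes and spleen, and RNA was sequenced in 6 libraries. All cells had first been driven by plate-bound antibodies against CD3 and CD28 for 3 days and then expanded in interleukin 2 for 5 days, so both groups had been activated and grown in interleukin 2 before the comparison, and no group of unprimed cells stands beside them. The stimulated group (n = 3) was then exposed to anti-CD3/CD28 again for 4 hours, and the unstimulated group (n = 3) was left at rest. The labels name neither the strain, age or sex of the mice nor whether the replicates came from separate animals, so a p-value below reflects only how far these 6 libraries scatter, and that scatter could be technical.

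SOCS proteins are the inducible brakes of the JAK-STAT pathway. A cytokine brings its receptor chains together, the attached Janus kinases phosphorylate the receptor and the STAT factors docked on it, and the STATs enter the nucleus, where Cish and several Socs genes are among their classical targets. The proteins so made carry an SH2 domain, which finds phosphotyrosine on the receptor or kinase, and a C-terminal SOCS box, which recruits elongins B and C and a cullin to attach ubiquitin. SOCS1 and SOCS3 also hold a short kinase inhibitory region that blocks the Janus kinase itself. SOCS1 is best known as the brake on interferon gamma, SOCS3 on cytokines of the interleukin 6 type, CIS and SOCS2 on receptors that use STAT5, and SOCS4 to SOCS7 have been linked mainly to growth factor receptor and adaptor signalling.

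RefSeq promoter windows (build GRCm38.p6, 250 bases before to 50 after the RefSeq gene start) were held for 4 of the 8 members, Cish, Socs1, Socs3 and Socs4. The 3 shown belong to the pair of genes with the largest rise and to the single gene that fell, and differ in the STAT-type motifs they hold. They are written 5′ to 3′ in the sense of the gene, and capitals mark matches to the gamma-activated site TTCNNNGAA, which STAT dimers are known to bind, or to the interferon-stimulated response element, searched as GAAA and GAAA with any 2 bases between. The windows lie at chr9:107296409-107296708 on the plus strand (Cish), chr16:10785487-10785786 on the minus strand (Socs1) and chr11:117969317-117969616 on the minus strand (Socs3). The RefSeq start of Socs1 is also its GENCODE start, whereas the Cish and Socs3 windows lie wholly inside the wider GENCODE bounds given below and so are not upstream of those bounds.
Cish: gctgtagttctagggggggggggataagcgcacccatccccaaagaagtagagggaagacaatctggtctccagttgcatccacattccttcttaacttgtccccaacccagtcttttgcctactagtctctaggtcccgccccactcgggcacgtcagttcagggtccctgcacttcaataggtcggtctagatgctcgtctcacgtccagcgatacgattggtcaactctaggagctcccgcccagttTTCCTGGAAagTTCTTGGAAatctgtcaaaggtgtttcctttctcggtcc
Socs1: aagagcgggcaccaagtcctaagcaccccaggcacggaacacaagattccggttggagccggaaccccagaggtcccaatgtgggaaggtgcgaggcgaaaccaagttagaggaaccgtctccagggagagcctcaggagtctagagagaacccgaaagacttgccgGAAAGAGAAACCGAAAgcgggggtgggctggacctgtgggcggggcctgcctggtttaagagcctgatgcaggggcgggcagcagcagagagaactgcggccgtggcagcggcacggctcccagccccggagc
Socs3: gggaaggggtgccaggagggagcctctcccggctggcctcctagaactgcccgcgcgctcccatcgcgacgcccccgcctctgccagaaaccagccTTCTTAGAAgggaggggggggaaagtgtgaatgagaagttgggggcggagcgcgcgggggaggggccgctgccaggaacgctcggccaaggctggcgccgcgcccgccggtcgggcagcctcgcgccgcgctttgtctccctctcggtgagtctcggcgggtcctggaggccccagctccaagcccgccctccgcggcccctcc

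The Cish window held 2 gamma-activated sites, TTCCTGGAA at bases 1 to 9 and TTCTTGGAA at bases 12 to 20 counted from the RefSeq start. At least 1 such match stood in 8.30% of the 32851 RefSeq windows, and 2 or more in 0.457%. The Socs3 window held 1, TTCTTAGAA, at bases -154 to -146, while the Socs1 and Socs4 windows held none. Socs1 instead held 2 overlapping response-element matches, GAAAGAGAAA at -83 to -74 and GAAACCGAAA at -77 to -68, a motif present at least once in 3.44% of all windows and 2 or more times in 0.225%.

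Both strands were searched, also for TTC and GAA with any 4 bases between (6.95% of all windows), the NF-kB-type motif GGGNNTTCC (5.82%), the AP-1-type motif TGANTCA (7.81%), the E-box CACGTG (7.15%) and TATAAA (13.6%), and none of these letters stood in the 4 windows. The NFAT core GGAAA, found in 61.3% of all windows, matched in all 4 and overlapped both gamma-activated sites of Cish and the first response-element match of Socs1. A match describes the letters and not an occupied site.

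Stimulation raised 6 of the 8 members, lowered 1 and left 1 without a call. Cish and Socs1 rose several-fold, and Socs7, Socs6, Socs5 and Socs2 rose by smaller amounts. Socs3 fell and Socs4 did not pass the test. These calls come from edgeR's quasi-likelihood test at a Benjamini-Hochberg adjusted p of 0.05 over all tested genes. The same test called 77.5% of all tested genes, 38.4% upwards and 39.1% downwards, so a call as such is common in these data. Changes of more than 2-fold, tested with glmTreat, were called for Cish and Socs1 among the members and for 35.6% of all tested genes. Stimulated and unstimulated libraries were fully separated in 7 members, all but Socs4, and in 79.8% of all tested genes. The median change of the 8 members was 0.62 on the log2 scale, beside -0.04 over all tested genes. Levels are scaled to library size, so these changes are relative, and the amount of RNA per cell was not measured.

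**Figure D1:**
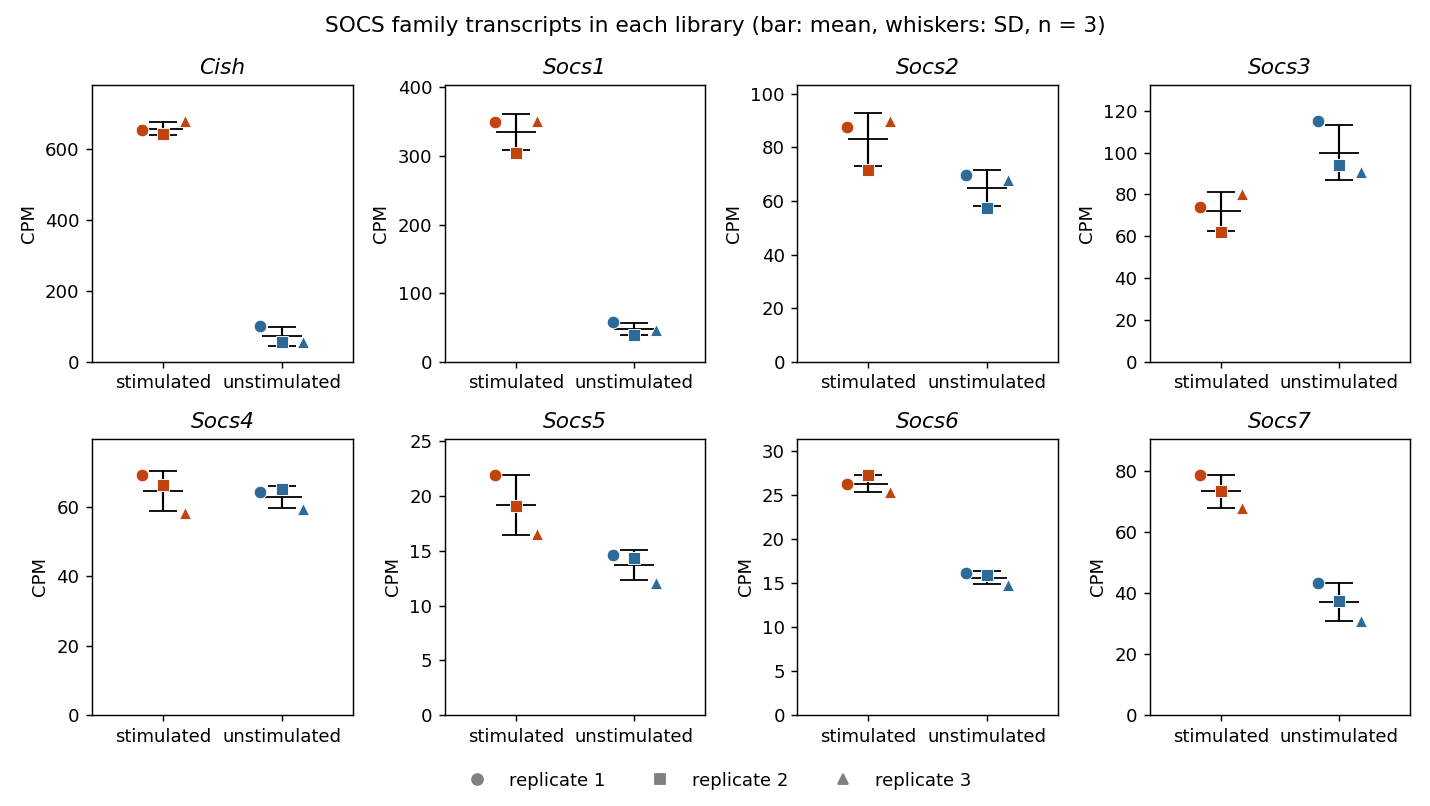
Level of each SOCS family transcript in reads scaled to library size (CPM, linear axes from 0) in the stimulated and unstimulated libraries, with replicates as symbols, the mean as a bar and the SD as whiskers. The stimulated libraries lie above the unstimulated ones for Cish, Socs1, Socs2, Socs5, Socs6 and Socs7 and below them for Socs3, and the groups overlap for Socs4.

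Cish (ENSMUSG00000032578, chromosome 9, 107296026 to 107302784, plus strand), which encodes the STAT5-induced protein CIS, changed the most. In reads scaled to TMM-normalized library size (CPM), it stood at 652, 641 and 679 in stimulated replicates 1 to 3, against 102, 56.5 and 55.9 in unstimulated replicates 1 to 3. The stimulated libraries lay close together, and among the resting ones replicate 1 held the highest level. The means were 657 ± 19.1 CPM in stimulated and 71.5 ± 26.5 CPM in unstimulated cells (SD, n = 3 each), a 9.20-fold rise (log2 fold change 3.20 with an SE of 0.25, edgeR adjusted p = 1.9e-05). Of all tested genes, 96.8% had a lower signed log2 fold change. Without unstimulated replicate 1 the rise was 11.7-fold (log2 fold change 3.55, SE 0.075), the largest of the 13 alternatives. The smallest log2 fold change was 3.04, without unstimulated replicate 3, and the highest edgeR adjusted p was 0.0014, with the replicate block. Part of the Cish exons, 261 bases or 4.07% of their length, overlaps the opposite-strand pseudogene Gm17040, which had 33, 27 and 35 reads in stimulated and 3, 4 and 5 reads in unstimulated libraries. The strand setting of the counting is not given in the sources used here, so reads of the overlap cannot be assigned with certainty. A second opposite-strand gene there, Gm17041, had 0 reads in all 6 libraries.

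Socs1 (ENSMUSG00000038037, chromosome 16, 10782240 to 10785536, minus strand), the Janus kinase inhibitor that restrains interferon gamma signalling, was second. Stimulated replicates 1 to 3 held 349, 305 and 351 CPM, and unstimulated replicates 1 to 3 held 57.8, 39.7 and 46.6 CPM. Every stimulated library lay far above every resting one. Socs1 averaged 335 ± 26.3 CPM in stimulated and 48.03 ± 9.14 CPM in unstimulated cells (SD, n = 3 each), a 6.97-fold rise (log2 fold change 2.80, SE 0.14, edgeR adjusted p = 2.3e-07), and 95.6% of all tested genes had a lower signed log2 fold change.

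Socs3 (ENSMUSG00000053113, chromosome 11, 117966079 to 117970047, minus strand), which encodes the other member with a kinase inhibitory region, went the opposite way. It stood at 73.8, 61.9 and 80.1 CPM in stimulated replicates 1 to 3, against 115, 93.9 and 90.9 CPM in unstimulated replicates 1 to 3. The groups did not overlap, but the gap between them, from 80.1 to 90.9 CPM, was narrower than the range within either group. Unstimulated replicate 1 was again the highest resting library. The change was -0.48 on the log2 scale (SE 0.12, edgeR adjusted p = 0.0056), from means of 71.9 ± 9.23 CPM in stimulated and 99.98 ± 13.2 CPM in unstimulated cells (SD, n = 3 each).

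Socs2 (ENSMUSG00000020027, chromosome 10, 95385362 to 95417180, minus strand), known as the brake on growth hormone signalling and, like Cish, a STAT5 target, moved little. Its levels were 87.6, 71.6 and 89.8 CPM in stimulated and 69.6, 57.3 and 67.8 CPM in unstimulated replicates 1 to 3. The lowest stimulated library stood just above the highest resting one. The rise was 1.28-fold (log2 fold change 0.36, with an SE of 0.11, edgeR adjusted p = 0.0141). This call was lost with library size alone (log2 fold change 0.22, adjusted p = 0.0951), without stimulated replicate 3 (0.30, adjusted p = 0.052) and without unstimulated replicate 2 (0.27, adjusted p = 0.067). The adjusted p ran from 0.00015 to 0.0951 over all its alternatives.

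Of the members linked to growth factor receptors and adaptors, Socs7 (ENSMUSG00000038485, chromosome 11, 97362551 to 97398542, plus strand), whose product is known to bind the adaptor Nck, rose most. It had 78.9, 73.4 and 67.9 CPM in stimulated and 43.3, 37.6 and 30.8 CPM in unstimulated replicates 1 to 3, a 1.97-fold rise (log2 fold change 0.98, SE 0.12, edgeR adjusted p = 7.2e-05). Every stimulated library lay above every unstimulated one. Socs6 (ENSMUSG00000056153, chromosome 18, 88665224 to 88927481, minus strand), whose product binds the stem cell factor receptor Kit, had 26.3, 27.3 and 25.3 CPM in stimulated and 16.1, 15.96 and 14.8 CPM in unstimulated replicates 1 to 3. The replicates of each group lay close together, and the rise was 1.68-fold (log2 fold change 0.75, SE 0.081, edgeR adjusted p = 2.5e-05).

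Socs5 (ENSMUSG00000037104, chromosome 17, 87107679 to 87137839, plus strand), linked to epidermal growth factor receptor and interleukin 4 signalling, stood at 21.9, 19.1 and 16.5 CPM in stimulated and 14.6, 14.3 and 12.1 CPM in unstimulated replicates 1 to 3. The groups did not overlap, and the rise was 1.40-fold (log2 fold change 0.48, SE 0.13, edgeR adjusted p = 0.0065). The closely related Socs4 (ENSMUSG00000048379, chromosome 14, 47276931 to 47296102, plus strand) had 69.3, 66.3 and 58.2 CPM in stimulated and 64.3, 65.2 and 59.3 CPM in unstimulated replicates 1 to 3. The groups overlapped, and the difference of 0.04 (SE 0.082, edgeR adjusted p = 0.689) lay between -0.10 and 0.11 over the alternatives, without a call in any of the 13.

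**Figure D2:**
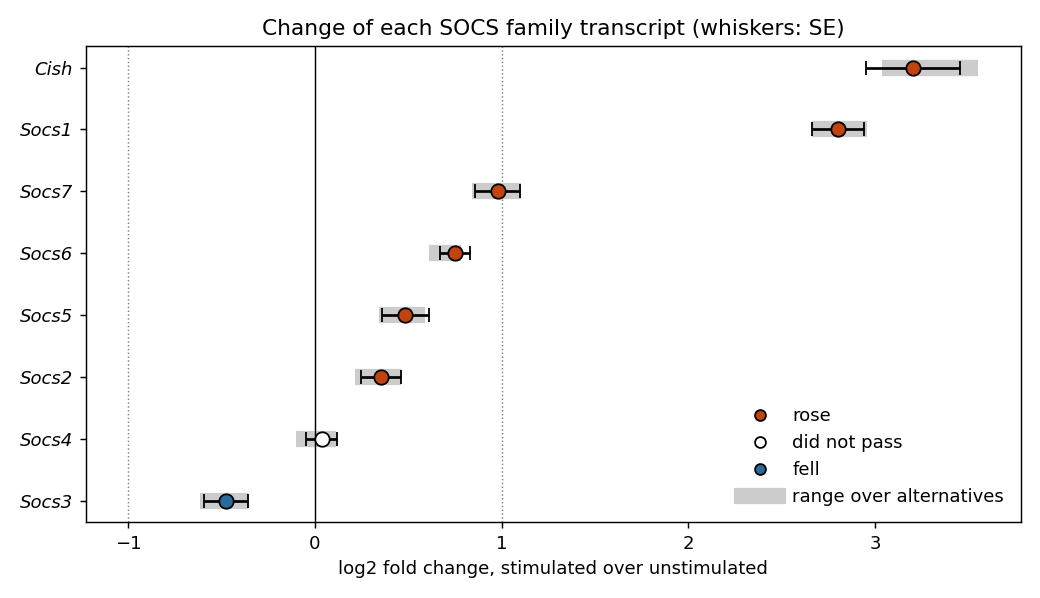
Log2 fold change of each SOCS family member, stimulated over unstimulated (points, with SE as whiskers), and the range of the same value over the 13 alternative settings (grey bars), with dotted lines at a 2-fold change. Cish (3.20) and Socs1 (2.80) stand beyond the 2-fold line, Socs7 (0.98) lies at it, and Socs3 (-0.48) is the single member that fell.

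Because long transcripts yield more reads, levels of different genes were compared as CPM per kb of merged exon length. On that scale Socs3 led in unstimulated cells at 34.6 ± 4.56 CPM per kb, above Socs1 at 16.5 ± 3.14 and Cish at 11.1 ± 4.13 (SD, n = 3). In stimulated cells Socs1 led at 115 ± 9.05 CPM per kb, with Cish at 102 ± 2.98, and Socs3 followed at 24.9 ± 3.19. The ranges of Socs1 and Cish overlapped in both groups, and so did those of Cish and Socs4 in unstimulated cells and of Socs7, Socs4 and Socs2 in stimulated cells. All other neighbours in either order were separate, with Socs5 (2.99 ± 0.424 in stimulated and 2.13 ± 0.217 CPM per kb in unstimulated cells) and Socs6 (2.31 ± 0.0891 and 1.38 ± 0.0654 CPM per kb in the same order of groups) at the bottom. With the longest transcript as length, Cish stood above Socs1 in stimulated cells (140.0 ± 4.07 against 115 ± 9.05 CPM per kb), and Socs2 moved up to 19.6 ± 2.35 CPM per kb in stimulated and 15.3 ± 1.56 in unstimulated cells. Both orders put Socs3 first at rest. Among all tested genes, the level per kb of Cish exceeded 96.2% in stimulated and 69.2% in unstimulated cells, and that of Socs3 82.4% in stimulated and 89.8% in unstimulated cells.

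The make-up of the family pool differed between the groups, a measure that does not depend on library size. Cish took 35.9%, 38.6% and 36.9% of the summed family level per kb in stimulated replicates 1 to 3, against 15.6%, 11.1% and 10.98% in unstimulated replicates 1 to 3. Socs3 took 9.01%, 8.28% and 9.68% in stimulated libraries, against 39.1%, 41.0% and 39.6% in unstimulated ones. Socs1 held 42.4%, 40.5% and 42.2% in stimulated and 19.5%, 17.2% and 20.2% in unstimulated libraries. Socs1 and Cish were the leading pair in every stimulated library, and Socs3 took the largest share in every unstimulated one. For Cish the mean share was 24.6 percentage points higher in stimulated than in unstimulated cells, and for Socs3 the difference was -30.9 points. The groups did not overlap for any of the 8 shares. Shares sum to 100%, so the larger shares of Cish and Socs1 lower all the others by construction, and the shares of Socs2, Socs5, Socs6 and Socs7 were lower in stimulated cells although their levels rose. In level, Socs3 differed less, at 24.9 ± 3.19 CPM per kb in stimulated and 34.6 ± 4.56 CPM per kb in unstimulated cells. With 3 against 3 libraries the exact two-sided permutation test gave p = 0.1, the smallest it allows, so no share can pass at 0.05. The summed family level was 276 ± 15.03 CPM per kb in stimulated and 86.8 ± 13.05 CPM per kb in unstimulated cells (SD, n = 3 each), a ratio of 3.18 (exact permutation p = 0.1).

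**Figure D3:**
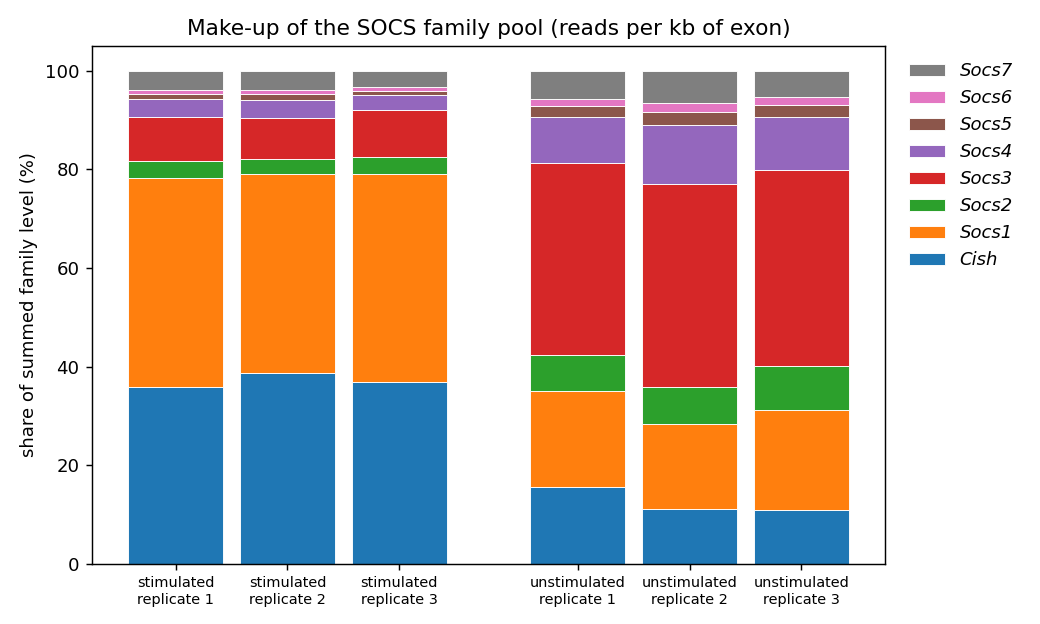
Share of each member in the summed SOCS family level (reads per kb of merged exon, in percent) in every library, stimulated on the left and unstimulated on the right. Cish and Socs1 fill most of each stimulated bar, and Socs3 is the widest band of each unstimulated bar (39.1%, 41.0% and 39.6%).

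Ratios of reads within a library showed the same crossing without any scaling. There were 8.84, 10.4 and 8.47 Cish reads for each Socs3 read in stimulated replicates 1 to 3, against 0.887, 0.601 and 0.615 in unstimulated replicates 1 to 3. Socs1 to Socs3 ratios were 4.73, 4.92 and 4.38 in stimulated and 0.502, 0.422 and 0.513 in unstimulated libraries. Cish and Socs1 kept closer to each other. Their ratio was 1.87, 2.11 and 1.93 in stimulated and 1.77, 1.42 and 1.199 in unstimulated libraries, a difference of 0.45 on the log2 scale (exact permutation p = 0.1, the smallest possible).

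Among the unstimulated libraries, replicate 1 held the highest level of 7 of the 8 members, all but Socs4. Cish stood 1.82-fold above the mean of the other 2 resting libraries there, Socs1 1.34-fold, Socs7 1.27-fold and Socs3 1.25-fold. The same library was highest for 13 of 20 early activation genes, and for 46.6% of the genes that rose and 37.5% of all tested genes. Egr2, a transcription factor induced by the receptor, had 4.10 CPM in it and 1.49 and 1.54 CPM in unstimulated replicates 2 and 3, against 223, 220.2 and 201 CPM in stimulated replicates 1 to 3. Of the 20 early activation genes, 3 were highest in unstimulated replicate 2 and 4 in unstimulated replicate 3. The latter include Cd69 (11.7, 9.23 and 13.04 CPM in unstimulated replicates 1 to 3) and Tnf (4.96, 4.49 and 5.15 CPM). The summed early activation genes were at 897 CPM in unstimulated replicate 1 and at 777 and 736 CPM in replicates 2 and 3, against 5899 to 6292 CPM in stimulated libraries. The abundant Il2ra (343, 292 and 268 CPM in unstimulated replicates 1 to 3) and Myc (195, 159 and 146 CPM) weigh heavily in these sums. Whether the activation gene level of unstimulated replicate 1 has a part in the members' levels was not tested.

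The libraries carried the markers of CD4+ T cells, with Cd4 at 317 to 350.1 CPM in stimulated and 949 to 1028 CPM in unstimulated libraries. All 6 B cell markers were found, and their sum, nearly all Ighm, was 727 to 1278 CPM in stimulated and 1403 to 2859 CPM in unstimulated libraries. The 5 natural killer cell markers summed to 73.3 to 125 CPM in stimulated and 11.3 to 25.8 CPM in unstimulated libraries. Eomes led them with 58.2 to 112 CPM in stimulated and 1.70 to 19.6 CPM in unstimulated libraries, while the defining Ncr1 and Klrb1c had 3 reads or fewer in every library. The 6 myeloid markers summed to 1.65 to 2.76 CPM in stimulated and 9.15 to 11.9 CPM in unstimulated libraries. The 5 dendritic cell markers summed to 5.83 to 7.97 CPM in stimulated and 1.38 to 2.32 CPM in unstimulated libraries, with Siglech at 0. In stimulated and then unstimulated libraries, the 2 CD8 T cell markers summed to 20.7 to 25.8 and 20.9 to 24.8 CPM, the 3 stromal markers, mostly Pecam1, to 45.3 to 58.0 and 176 to 195 CPM, and the 3 erythroid markers to 0.177 to 0.620 and 0.573 to 1.63 CPM. Hbb-bs and Pdgfra had 3 reads or fewer in every library. The part of these cells in the members' changes was not tested. In bulk RNA, fewer cells that express a gene and less of its RNA per cell cannot be told apart. Total counts ran from 29897720 to 30252923, so that 3 reads corresponded to between 0.0943 and 0.106 CPM.

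The genes around the family in cytokine signalling were counted by role, to be read against the 77.5% of all tested genes that were called, 38.4% upwards and 39.1% downwards. Near that background the count says nothing particular about a list, as for the receptors, the other attenuators and the binding partners. The same holds for the ligase parts in calls of either direction. The genes named from each list are mostly those with the smallest p, which need not have the largest change. The 12 lists hold 251 entries for 231 different genes, so some genes, such as Il2ra, count in several lists. Of 35 JAK-STAT cytokine ligands, 17 passed the filter, of which 15 rose and none fell (median log2 fold change 6.31). The T cell growth factor Il2 stood at 216, 313 and 224 CPM in stimulated and at 0.605, 0.443 and 0.377 CPM in unstimulated replicates 1 to 3. Interferon gamma, from Ifng, stood at 67.8, 58.03 and 77.4 CPM in stimulated and at 0.350, 0.411 and 0.189 CPM in unstimulated ones. Il3 and Il9 had 3 reads or fewer over the resting group, and setting them to their counted ratio or bound left the median at 6.31. Il3, Il5, Il6 and Il9 (means of 0.0318, 0.169, 0.0848 and 0.0212 CPM in unstimulated cells) passed the filter only through the stimulated libraries. A fall could not be called for them, so the ligand count and median are in part set by the filter. The same holds for Il13ra1 and Epor among the receptors, Cxcl9 among the interferon-response genes and Il17a among the STAT3 and STAT6 targets.

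Receptor chains went both ways. Of 36 listed, 27 were tested, 11 rose and 10 fell (median -0.07). The high-affinity interleukin 2 receptor chain Il2ra rose 4.94-fold, to 1487 ± 131 CPM in stimulated cells against 301 ± 37.9 CPM in unstimulated cells, and Il15ra 5.98-fold. The interleukin 7 receptor chain Il7r was 76.4 ± 11.7 CPM in stimulated and 742 ± 46.6 CPM in unstimulated cells (log2 fold change -3.28, SE 0.12), and the interleukin 6 receptor chain Il6ra 21.6 ± 2.21 and 140.0 ± 13.4 CPM in the same order of groups (SD, n = 3 each; log2 fold change -2.70, SE 0.10).

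Of the 4 Janus kinases, Jak2 rose 5.31-fold and Jak1 fell by 1.66 on the log2 scale (SE 0.082). Jak3, the partner of the common gamma chain, stood at 253 ± 13.03 CPM in stimulated and 217 ± 31.05 CPM in unstimulated cells and did not pass (log2 fold change 0.23, edgeR adjusted p = 0.0717). It passed with the replicate number as a block (adjusted p = 0.0176) and without unstimulated replicate 1 (adjusted p = 0.0044). Tyk2 did not pass either.

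Of the STAT factors, Stat5a, which drives Cish in response to interleukin 2, stood at 1025, 991 and 934 CPM in stimulated and at 78.4, 60.9 and 50.7 CPM in unstimulated replicates 1 to 3, a 15.5-fold rise (log2 fold change 3.96, SE 0.16, edgeR adjusted p = 1.3e-07). The closely related Stat5b rose 1.604-fold (log2 fold change 0.68, SE 0.11) and Stat2 3.63-fold. Stat4, which signals for interleukin 12, fell by 3.20 on the log2 scale (SE 0.097).

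Genes known as STAT targets in other settings were listed by factor. Of 18 STAT5 targets 13 rose and 3 fell (median 1.31), with the survival gene Bcl2l1 up 19.5-fold and the growth regulator Myc 8.05-fold, while the cyclin gene Ccnd3 and the survival gene Bcl2 fell by 1.90 and 0.39 on the log2 scale. The STAT5 target kinase gene Pim1 rose 1.73-fold, to 555 ± 23.5 CPM in stimulated cells against 320.1 ± 32.7 CPM in unstimulated cells. With library size alone 5 of the STAT5 targets fell. All 24 interferon-response genes listed rose (median 3.19), among them the lineage factor Tbx21 5.68-fold and the interferon regulatory factor Irf8 37.6-fold. The ubiquitin-like modifier Isg15 stood at 501, 261 and 349 CPM in stimulated and at 3.79, 2.56 and 3.52 CPM in unstimulated replicates 1 to 3. Of 16 STAT3 and STAT6 targets 15 were tested and 12 rose with none falling (median 1.37), and the smallest p belonged to the costimulatory receptor Icos (3.06-fold) and the AP-1 factor Batf (2.58-fold).

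Other attenuators of the pathway divided 8 up and 6 down of 19 (median 0.09). The protease Usp18, which removes Isg15 and restrains the type I interferon receptor, stood at 257, 125 and 154 CPM in stimulated and at 4.55, 4.43 and 3.46 CPM in unstimulated replicates 1 to 3. The adaptor Sh2b3 rose 1.89-fold, and the STAT inhibitors Pias3 and Pias1 fell by 2.71 and 1.21 on the log2 scale. The count of risen attenuators was 5 with library size alone, with no filter and without unstimulated replicate 2.

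The parts of SOCS box ligases, listed with general ubiquitin and neddylation factors, rose in 12 of 19 cases and fell in 2 (median 0.31). Of the elongins, Eloc rose by 0.94 on the log2 scale and Elob did not pass (0.18, edgeR adjusted p = 0.158). Cul5, the cullin of SOCS box ligases, rose 2.49-fold, to 81.1 ± 4.16 CPM in stimulated cells against 32.6 ± 2.41 CPM in unstimulated cells, and Cul2 rose 2.81-fold. The conjugating enzyme Ube2d2a and the neddylation factor Dcun1d3 fell by 0.41 and 0.65 on the log2 scale. Other proteins with a SOCS box went both ways. Of 27 such genes 14 were tested, 6 rose and 8 fell (median -0.42), with Asb2 up 5.28-fold and Wsb1 2.12-fold, and Asb1 and Asb3 down by 1.54 and 1.11 on the log2 scale. Of 26 kinases and adaptors that SOCS proteins are reported to bind, 25 were tested, 7 rose and 12 fell (median -0.12). The phospholipase Plcg1, reported as a target of CIS in mouse CD8 T cells, was 115 ± 0.276 CPM in stimulated and 320.2 ± 11.2 CPM in unstimulated cells (log2 fold change -1.48, SE 0.061). The stress kinase Map3k5 fell by 1.13, and Egfr, listed on 105 stimulated and 21 unstimulated reads, rose 5.45-fold. Egfr passed the filter only through the stimulated libraries, so a fall could not have been called for it. All 20 early activation genes rose (median 4.00), with the surface marker Cd69 at 422 ± 22.7 CPM in stimulated and 11.3 ± 1.93 CPM in unstimulated cells, Tnf up 70.9-fold and Tnfrsf9 48.2-fold. Adjusted p-values of the genes called in these lists and named here lay between 2.6e-09 and 0.0068 in edgeR's test.

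**Figure D4:**
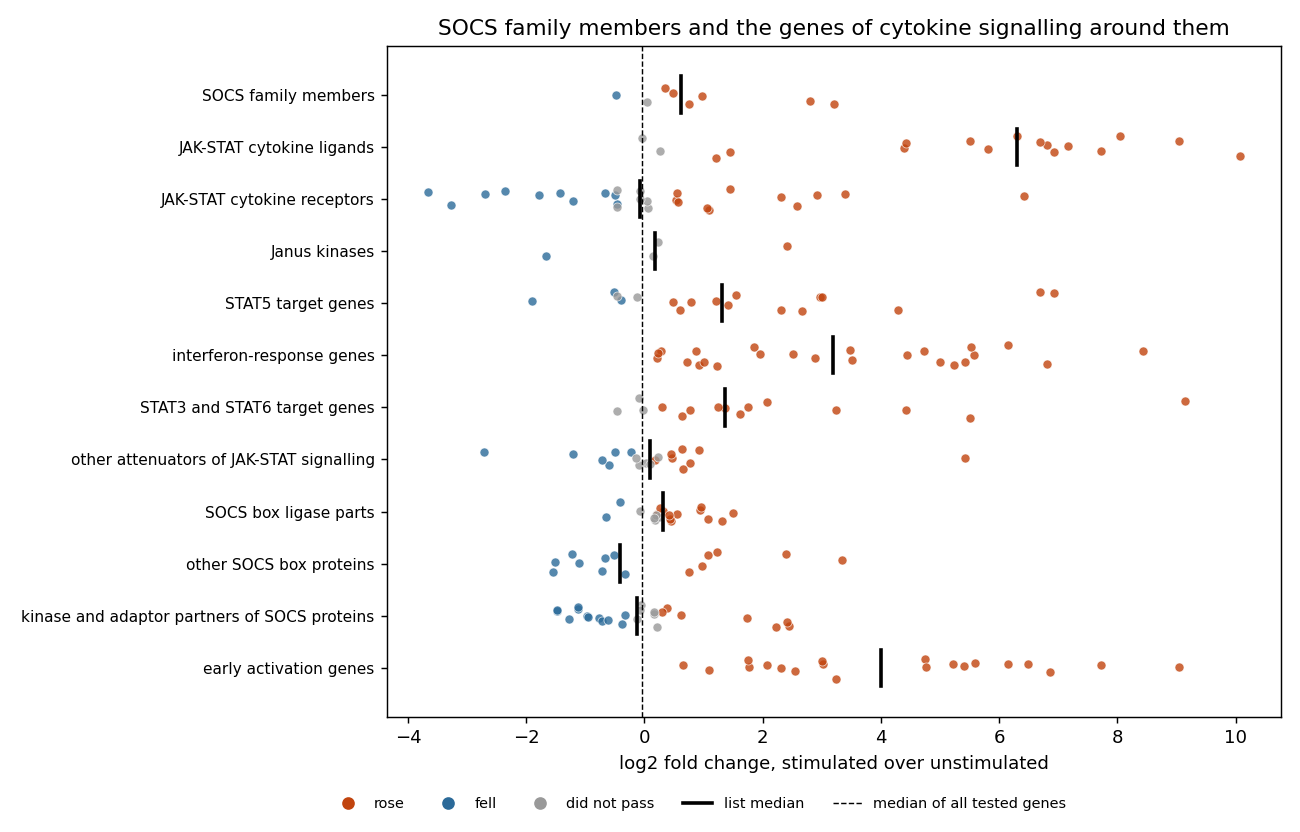
Log2 fold change, stimulated over unstimulated, of every tested gene in the SOCS family and in 11 of the 12 lists of genes around it (the list of STAT factors is not drawn), with list medians as bars and the median of all tested genes (-0.04) as a dashed line. The SOCS members spread from -0.48 to 3.20, ligands and early activation genes lie mostly to the right, and receptors, attenuators and other SOCS box proteins stand on both sides.

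For Cish, Socs1 and Socs3 the nearest profiles were sought among 10418 protein-coding genes with a mean of at least 1 CPM, as the Euclidean distance between mean-centred log2 CPM values over the 6 libraries. Nearest to Cish were the co-chaperone Bag2 (distance 0.182), the costimulatory receptor Cd40 (0.312) and the desaturase-family gene Fads6 (0.319). These 3 also had their highest resting level in unstimulated replicate 1, Bag2 at 2.51 CPM there and at 1.52 and 1.45 CPM in unstimulated replicates 2 and 3. The distance was taken over these same libraries, so it selects for that feature. Nearest to Socs1 were Jrk (0.1798), the adhesion molecule Icam1 (0.231) and the nuclease gene Aen (0.256), and nearest to Socs3 were the transcription factor Creb3 (0.135), Treml2 (0.171) and the small GTPase Arl13b (0.195). The distances describe these 6 libraries, and the split into 2 groups sets most of each profile. The fall of Treml2 (-0.44, edgeR adjusted p = 0.0196) was lost with no filter (adjusted p = 0.0505) and without stimulated replicate 2 (adjusted p = 0.0681).

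**Figure D5:**
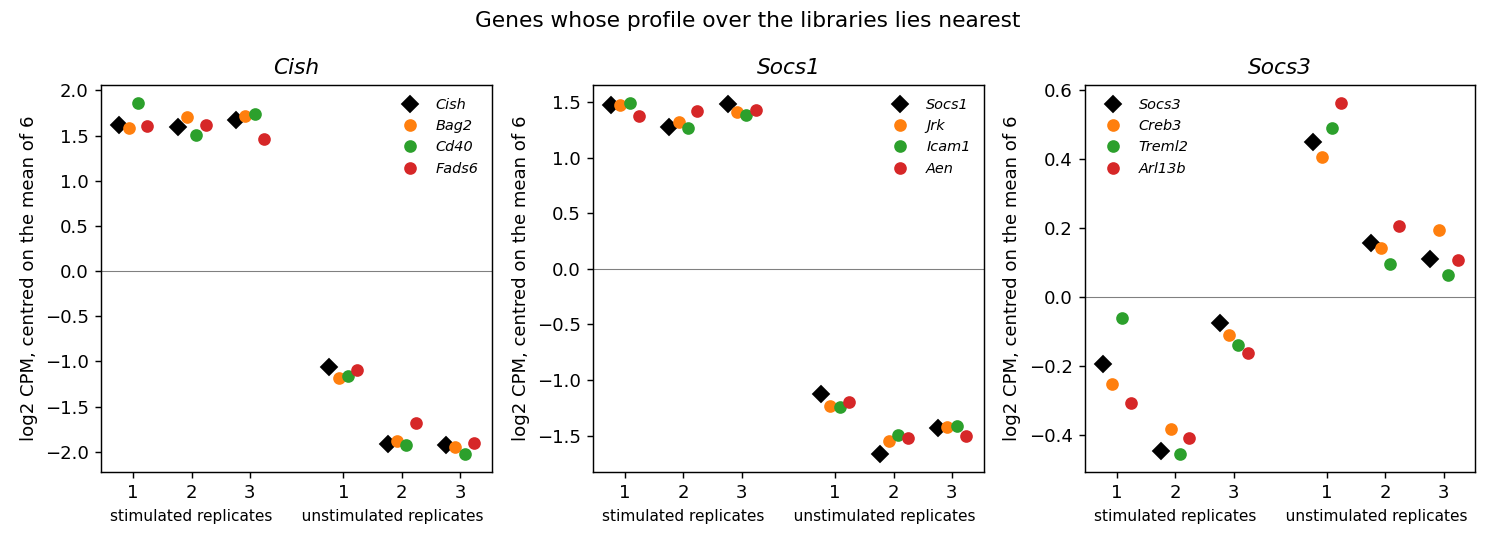
Log2 CPM centred on the mean of the 6 libraries for Cish, Socs1 and Socs3 (black diamonds) and the 3 genes nearest to each (coloured points), stimulated replicates on the left and unstimulated ones on the right of each panel. In the Cish panel unstimulated replicate 1 lies above replicates 2 and 3 for all 4 genes, a feature that the choice by distance selects for.

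The members sit on 7 chromosomes, with Socs3 and Socs7 both on chromosome 11. The nearest tested protein-coding gene on either side of each member made 16 neighbours, of which 8 rose, 4 fell and 4 did not pass (median 0.30). Over all tested genes 38.4% rose and 39.1% fell, so the count of called neighbours lies near that background. Beside Cish, Hemk1, a methyltransferase gene 24300 bases away, rose to 76.3 ± 9.34 CPM in stimulated cells against 21.3 ± 2.83 CPM in unstimulated cells (log2 fold change 1.84, SE 0.12, edgeR adjusted p = 8.8e-07), and Mapkapk3, 6149 bases away, rose by 0.66. Tnp2, which encodes a sperm nuclear protein and lies 2400 bases from Socs1 on its 5′ side, stood at 9.53, 6.64 and 10.5 CPM in stimulated and at 1.72, 1.14 and 1.54 CPM in unstimulated replicates 1 to 3. Its log2 fold change was 2.60 (SE 0.23, edgeR adjusted p = 7.0e-06), whereas Clec16a on the other side of Socs1 did not pass (-0.16, adjusted p = 0.174). Of the neighbours of Socs3, Tha1 fell by 2.30 and Pgs1 rose by 0.50. Wdhd1, which lies 74 bases before the start of Socs4, rose by 0.39 (SE 0.083, adjusted p = 0.0022). These neighbours were chosen by position and named after their values were seen.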

How the data were processed

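The 6 libraries were analysed, grouped by their titles into 3 stimulated and 3 unstimulated. The authors deposited raw counts per Ensembl gene in 1 table. The submitters' processing notes name STAR 2.5.2a, HTSeq, DESeq2 and the build GRCm38, with no role for any of them, and the sources used here give no annotation release, strand setting or read filter. GENCODE M21 supplied symbols, exon lengths and GRCm38 coordinates for 48058 identifiers. Replicates differed by more than counting noise (dispersion index 8.76 to 34.8, where noise alone gives about 1). The floor of 3 reads covers counting error only.

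Genes were tested with edgeR 4.0.16 in R 4.3.3, two-sided: TMM normalization, filterByExpr, robust dispersions, and a quasi-likelihood fit whose single term was the group, with Benjamini-Hochberg adjustment over 13314 genes. CPM used TMM-scaled library sizes. As alternatives, RLE normalization, unscaled library size, an unfiltered table, a minimum of 1 CPM in at least 3 libraries, DESeq2 1.42.0, limma-voom from limma 3.58.1, a replicate block, the omission of single libraries and, for counts of calls, an adjusted p of 0.01 were run. In simulated data with known changes, 71 of 100 genes changed 1.5-fold and 92 of 100 changed 2-fold were called in the right direction, and 7 of 13114 unchanged genes were called. Only these few genes were changed, up or down at random. The simulation therefore does not test normalization in data where 77.5% of genes are called.

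Results for 2 genes are not reported here. The members, the 12 lists (231 genes) and the rule for named genes were chosen with earlier results of these data known. The rule took all members, the 2 called genes of smallest p in each direction from each list, 10 fixed genes, and the 3 nearest profiles to Cish, Socs1 and Socs3. Python 3.11.15, pandas 2.3.3 and matplotlib 3.10.9 made tables and figures.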

Additional observations from a re-analysis of the deposited data

How the results depend on the processing

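Over 13 alternative settings the direction and call of Cish, Socs1, Socs3, Socs5, Socs6 and Socs7 held, Socs4 was never called, and Socs2 kept its direction and was called in 10. The members that rose numbered 5 or 6, and 1 fell, under every setting. Wherever a change over 2-fold was tested, 2 members passed. Over all genes the calls ran from 4563 to 5405 up and from 4601 to 5818 down. Library size alone moved the median of all genes by -0.14 and the split from 5113 up and 5207 down to 4563 up and 5818 down. The mean share of Cish in the summed family level was 28.3 percentage points higher in stimulated than in unstimulated cells with the longest transcript as length and 32.5 points higher with no division by length. For Socs3 the difference was -28.5 and -18.8 points under the same lengths, as the lengths given to a gene set its share by construction. Leaving out a library moved these differences between 23.8 and 26.1 for Cish and between -31.3 and -30.4 for Socs3. The numbers were not taken as pairs in the main fit, because the labels do not say that a number marks a shared source. Deviations from the group means correlated at 0.361, 0.0845 and 0.380 between same-numbered libraries. Between differently numbered ones the correlations ran from -0.363 to -0.0117, so each library correlated best with its own number. Pairing is therefore possible. With the replicate block 6 members rose, 1 fell and 2 changed over 2-fold, and 5326 genes rose and 5516 fell. Among other named genes 671 results kept their call and direction, Treml2 lost the call under 2 settings and Jak3 gained it under 2. Of the list counts 303 stayed within 1.5 times and 9 did not, in the Janus kinases (2 rose with the block and without unstimulated replicate 1), STAT5 targets (5 fell with library size alone), STAT3 and STAT6 targets (1 fell with library size alone, with DESeq2 and without unstimulated replicate 3) and attenuators (5 rose with library size alone, with no filter and without unstimulated replicate 2). None of these reversed. Depth did not limit the members, which had at least 385 reads per library.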
